A study of Caenorhabditis elegans with 6 samples.

Results

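The major sperm proteins of Caenorhabditis elegans and 4 related families of sperm transcripts were followed in worms treated with chlorpyrifos (CPF). All probes whose gene symbol begins with msp (major sperm protein), msd (major sperm protein domain), ssp (sperm-specific family, class P), ssq (class Q) or sss (class S) were taken. This gave 35 of 18880 genes, read by 44 of 22490 probes, with 18 probes for 15 msp genes, 2 probes for 2 msd genes, 14 probes for 12 ssp genes, 7 probes for 4 ssq genes and 3 probes for 2 sss genes. The rule reads gene symbols only. CPF, an organophosphate, kills insects by blocking acetylcholinesterase. Wild type worms (strain N2) were raised for 72 hours at 16 °C with Escherichia coli OP50 as food, either on CPF or, as controls, on the solvent acetone, and were sampled as L3 to L4 larvae. The dose is 0.5 mg/ml in the labels and the same figure in mg per litre in the study text, which the files cannot decide between. Each of 6 two-colour arrays carried 1 CPF and 1 control sample, and by the study's account each sample pooled 4 dishes of worms. CPF was labelled with Cy5 on 3 arrays (CPF Cy5 replicates 1 to 3) and with Cy3 on the other 3 (CPF Cy3 replicates 1 to 3).

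Nematode sperm carry no flagellum and crawl with a pseudopod. Its motility comes from filaments of the major sperm protein (MSP), a small protein that takes the place actin has in other crawling cells. MSP is made in quantity during spermatogenesis, which in hermaphrodites begins in the L4 larva and gives way to oocytes in the adult. Released from sperm, it also signals to oocytes to resume meiosis and to the gonadal sheath to contract. The msp genes are many and nearly identical, so that a probe may read several of them, and the value of a single msp gene is uncertain. Which probes cross-react was not tested.

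The signal allowed a value for most of these probes. A spot was taken as measured where its mean brightness was over 2 SD above the mean of its local background. Of the 44 probes, 37 were above background by this rule in at least 1 sample and 17 in all 12 samples. The other 7 were above it nowhere and have no usable ratio. They are the probes of msd-2, msp-10, ssp-9 and ssp-37, both probes of msp-36 and the dimmer of 2 probes of msp-45, with mean log2 intensities between 6.0 and 6.25. Over the array, 34.98% to 61.6% of probes were above background per sample. CPF Cy3 replicates 2 and 3 stood apart. Over all probes their log2 ratios correlated with those of the other 4 arrays at between -0.12 and 0.10, and with each other at 0.32, while the other 4 arrays correlated at 0.36 to 0.56. Results are therefore also given without this pair. The file headers show 2 days of scanning, CPF Cy5 replicates 1 and 2 and CPF Cy3 replicate 1 on the first and the other arrays on the second.

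In 4 of the 5 families, all but msd, some transcripts fell in CPF treated worms. With the day of scanning as a block, calls remained for ssp and sss only. All 6 msp calls and the ssq call were lost (limma adjusted p = 0.0596 to 0.0802 for msp and 0.0713 for ssq-4). The 3 that stayed called were ssp-11 and both probes of sss-1. The sizes of the block fit, as median log2 fold changes, were -1.72 for msp, -0.77 for msd and ssp, -0.56 for ssq and -1.10 for sss. Without the block they were -1.64, -0.79, -0.84, -0.34 and -1.12 for msp, msd, ssp, ssq and sss. These medians, like those below over all probes of a family, take in the probes above background nowhere. Those with signal were 14 of 18 for msp, 1 of 2 for msd and 12 of 14 for ssp. The msd median lies between msd-4 (-1.51) and msd-2 (-0.06, at background) and is the size of neither. Of the 44 probes, 13 were significantly lower than in control worms and 0 were higher (limma with Benjamini-Hochberg adjustment over all probes, adjusted p below 0.05). In the same fit 152 of all probes (0.676%) were lower and 58 (0.258%) were higher. The lower probes belonged to msp genes in 6 cases, to ssp genes in 3, to sss genes in 3 and to an ssq gene in 1. By the fit, what remained of the control level ranged from 27.4% to 65.0% among them. The 65.0% is that of ssp-33, which was above background in 0 CPF samples, so that end is not a measured level. The median log2 fold change of all 44 probes was -0.92, against 0.00 over all probes on the array. At an unadjusted p below 0.05, 31 of the 44 were lower, against 6.11% of all probes, and 0 were higher. The ratio was below 0 on all 6 arrays for 27 of the 44, against 4.08% of all probes. In samples of whole worms, fewer cells that form sperm and less of these transcripts in each cell cannot be told apart.

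**Figure D1:**
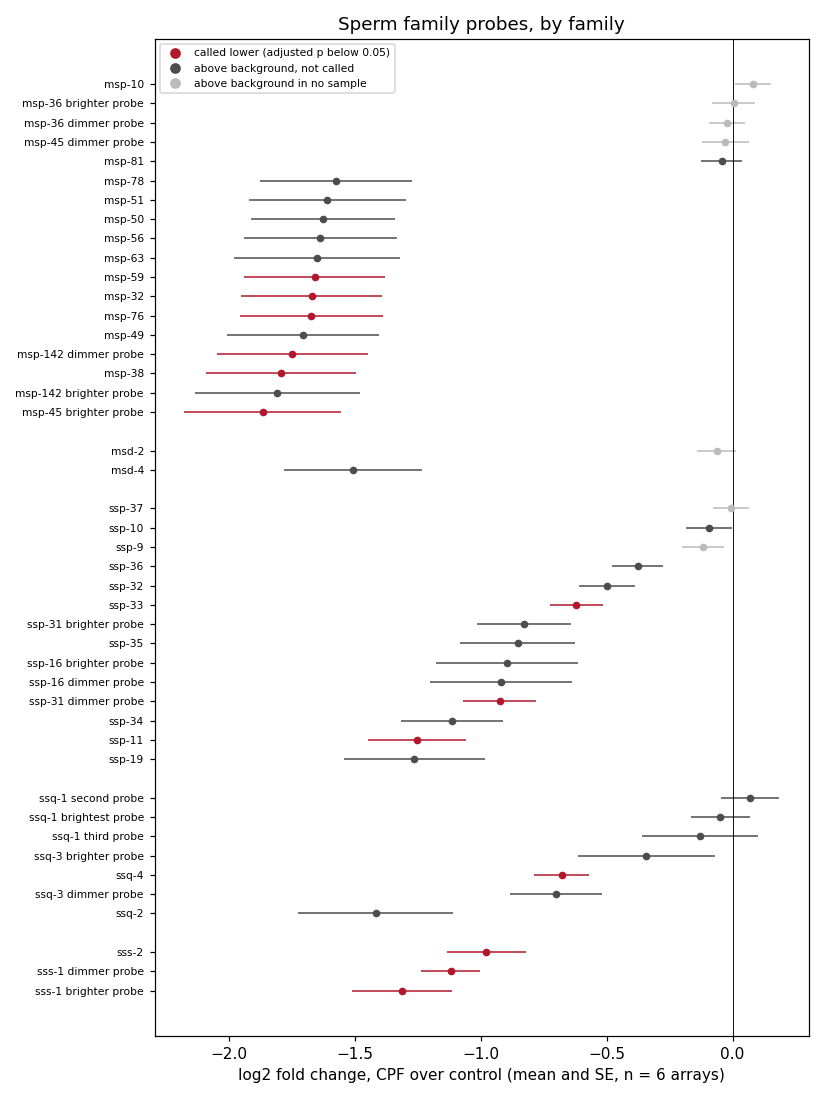
The log2 fold change of CPF over control is plotted for each of the 44 probes by family, as the fitted mean with its SE over 6 arrays. The 13 probes in red were significantly lower, the 7 in light grey were above background in no sample, and most msp probes lie near -1.64.

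The number of calls rested on single arrays. Leaving out replicate 1, 2 or 3 of CPF Cy5 changed it from 13 to 1, 0 and 3, while 0.04%, 0% and 0.133% of all probes were lower. Leaving out replicate 1, 2 or 3 of CPF Cy3 changed it to 21, 3 and 0, beside 0.952%, 0.574% and 0.0222% of all probes. Without both CPF Cy3 replicates 2 and 3 it was 23 lower and 0 higher (2.88% and 0.965% of all probes). With 1 probe for each gene 12 of 35 genes were lower (0.869% of all genes). Adjusted p of the 13 lay between 0.0140 and 0.0485, and 9 other probes had an adjusted p between 0.05 and 0.08. Without background correction 0 of the 44 were lower and 0 higher (0.0222% and 0.0489% of all probes), and the median log2 fold changes were -1.58 for msp, -0.63 for msd, -0.53 for ssp, -0.34 for ssq and -0.75 for sss. The rank product is the test of the study's methods, at a percentage of false positives below 0.05. Here it was run on background corrected ratios, which the deposited ratios are not. It gave 29 lower and 0 higher (1.99% and 0.747% of all probes). Its 29 included all 13 calls of limma.

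Among the msp genes, which encode the filament protein itself, 6 of 18 probes fell. The family's median log2 fold change was -1.64. The brighter msp-45 probe had the largest change of all 44. Its log2 intensity was 8.71 to 12.69 in CPF treated worms (median 10.98) and 9.95 to 13.78 in control worms (median 13.30). The ratio was below 0 on every array, with -3.15, -1.67 and -1.69 on CPF Cy5 replicates 1 to 3 and -2.89, -1.25 and -0.57 on CPF Cy3 replicates 1 to 3. The levels of the groups overlapped because both samples of CPF Cy3 replicate 2 were dim. The fitted log2 fold change was -1.87 ± 0.31 (SE, n = 6 arrays, limma adjusted p = 0.0445).

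The ratio of msp-38 was also lowest on the first replicate of each dye orientation. Its log2 intensity was 7.56 to 12.76 in CPF treated worms (median 11.44) and 8.51 to 14.46 in control worms (median 13.84). Its ratios were -3.30, -1.65 and -1.19 with CPF in Cy5 and -2.52, -0.95 and -1.15 with CPF in Cy3. It had a log2 fold change of -1.79 ± 0.30 (limma adjusted p = 0.0439). The levels of the groups overlapped, and both samples of CPF Cy3 replicate 2 were dimmer than on any other array. The dimmer probe of msp-142 had a log2 fold change of -1.75 ± 0.30 (limma adjusted p = 0.0485) and the brighter one -1.81 ± 0.33, which was not significant (0.0561). msp-76 had -1.67 ± 0.28 (0.0473), msp-32 -1.67 ± 0.28 (0.0458) and msp-59 -1.66 ± 0.28 (0.0462).

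The other msp probes with signal, apart from msp-81, were lower without passing the threshold. Those of msp-49, msp-50, msp-51, msp-56, msp-63 and msp-78 lay between -1.71 and -1.58, with limma adjusted p between 0.0533 and 0.0766. msp-49, msp-51 and msp-56 were the msp probes whose 6 CPF levels all lay below the 6 control levels. For msp-51 these were 11.71 to 13.93 (median 13.13) against 14.10 to 14.77 (median 14.51). For msp-56 they were 11.68 to 13.79 (median 13.34) against 14.31 to 14.79 (median 14.60). The msp-63 probe varied most between arrays. It read 9.95 to 13.37 in the samples of 4 arrays, and 7.45 and below in all samples of CPF Cy3 replicates 2 and 3.

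The 13 msp probes with signal other than msp-81, a set chosen after the values were seen, kept close together within each array while the arrays differed. On CPF Cy5 replicates 1 to 3 their ratios ran from -3.37 to -2.92, from -1.83 to -1.33 and from -1.69 to -0.94. On CPF Cy3 replicates 1 to 3 they ran from -2.89 to -2.33, from -1.25 to -0.42 and from -1.35 to -0.20. The range on CPF Cy5 replicate 1 thus did not overlap that on any other array. Probes of near-identical genes on 1 array share their sample, and are not separate measurements of the treatment.

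**Figure D2:**
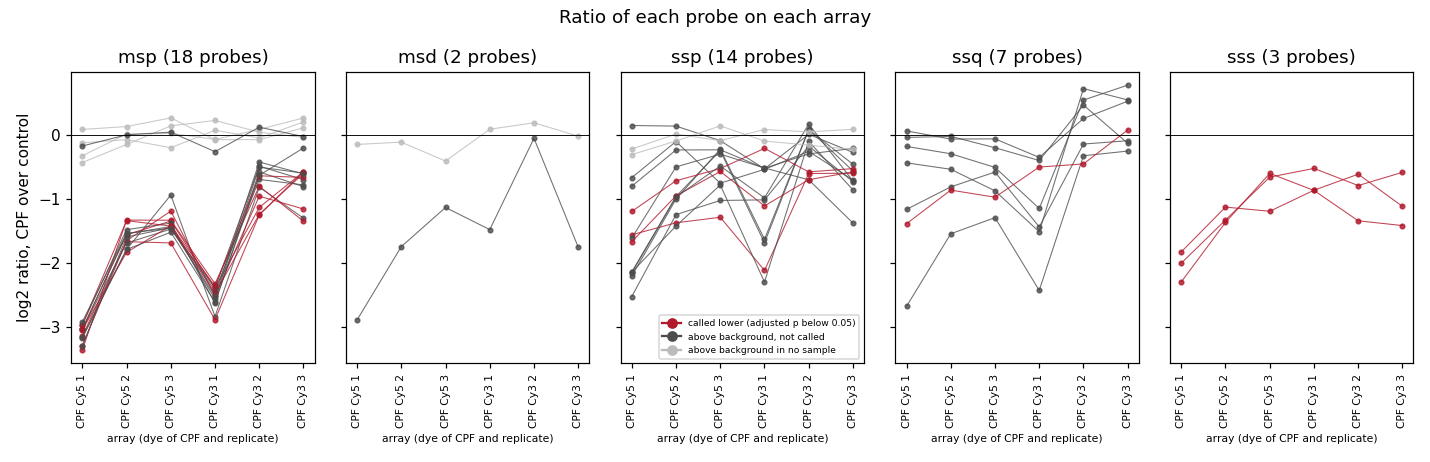
The log2 ratio of CPF over control is plotted for every probe on each of the 6 arrays, 1 panel per family, with lines joining the values of a probe. The 13 msp probes move together from array to array, with medians from -3.05 (CPF Cy5 replicate 1) to -0.66 (CPF Cy3 replicate 3), while msp-81 stays near 0.

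msp-81 was an exception among the msp genes. It was above background in all 12 samples, with a log2 intensity of 8.50 to 10.08 in CPF treated worms (median 8.92) and 8.76 to 9.95 in control worms (median 9.0). Its ratios lay between -0.26 and 0.13, and 3 of 6 were below 0. The log2 fold change was -0.04 ± 0.08 (limma adjusted p = 0.935), with a 95% interval of -0.23 to 0.15. On each of the 6 arrays its ratio was above those of all 13 other msp probes with signal. As msp-81 was set apart from the 13 by its values, this partly follows from the choice. The 4 msp probes without signal lay between -0.03 and 0.08, and msp-10 had the highest fitted value of the 44 (0.08, limma adjusted p = 0.828). These 4 say nothing of their transcripts. The brighter and dimmer probes of msp-45 thus gave -1.87 and -0.03, the second from spots at background.

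The msd genes encode proteins built around the MSP domain. msd-4 had a log2 fold change of -1.51 ± 0.27, which did not pass the threshold (limma adjusted p = 0.0561). Its log2 intensity was 6.22 to 8.84 in CPF treated worms (median 8.10) and 6.27 to 10.58 in control worms (median 9.86). Its ratios were -2.89, -1.74 and -1.13 with CPF in Cy5, and -1.48, -0.05 and -1.75 with CPF in Cy3. On CPF Cy3 replicate 2, which gave -0.05, neither of its samples was above background. msd-2 was above background nowhere (-0.06).

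The ssp genes encode small sperm proteins of class P, several of which carry an MSP domain. Their median log2 fold change was -0.84, and 3 of 14 probes fell. ssp-11 had a log2 intensity of 8.26 to 9.21 in CPF treated worms (median 9.03) and 8.89 to 11.31 in control worms (median 10.07). Its ratios were -1.56, -1.37 and -1.28 with CPF in Cy5, and -2.12, -0.60 and -0.59 with CPF in Cy3. The fitted change was -1.25 ± 0.20 on the log2 scale (limma adjusted p = 0.0380), although the levels of the groups overlapped. The dimmer probe of ssp-31 read 6.08 to 7.81 in CPF treated worms and 7.33 to 8.50 in control worms. It had a log2 fold change of -0.93 ± 0.15 (limma adjusted p = 0.0383), and the brighter one -0.83 ± 0.19 (0.112). In CPF treated worms these probes were above background in 3 and 2 of 6 samples, so these fold changes rest partly on spots at background. ssp-33 was above background in 0 CPF and 5 control samples, so its level in CPF treated worms was not measured. Its fitted log2 fold change was -0.62 (limma adjusted p = 0.0484). A cautious estimate was a 1.41-fold decrease, or 0.50 on the log2 scale. This estimate sets the control mean against the higher, per array, of the probe's own signal and the lowest signal of any probe above background. It is not a minimum under other processing. The fitted log2 fold change was -0.31 without background correction, -0.33 with median brightness and -1.13 with plain subtraction. ssp-33 was called under none of these.

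The other ssp probes were not called. ssp-34 had a log2 fold change of -1.12 (limma adjusted p = 0.0561) and ssp-19, which had a change of -1.27, missed the threshold more widely (0.108). Its ratios spread from -2.30 to -0.09. The probes of ssp-16 had -0.90 and -0.92, ssp-35 had -0.85, ssp-32 -0.50 and ssp-36 -0.38, the last 2 with 1 CPF sample each above background. On CPF Cy3 replicate 2 the ratios of both ssp-16 probes and of ssp-35 were above 0, at 0.09, 0.09 and 0.18. Their log2 intensities there were 5.86 to 6.23, about as low as those of probes above background nowhere. ssp-10 stood apart from the family. It was bright in every sample, with a log2 intensity of 13.57 to 14.59 in CPF treated worms (median 14.07) and 13.84 to 14.58 in control worms (median 14.17). Its log2 fold change was -0.09 ± 0.09 (limma adjusted p = 0.847), with a 95% interval of -0.31 to 0.12. Its spots were not saturated. ssp-9 and ssp-37, both above background nowhere, had -0.12 and -0.01.

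**Figure D3:**
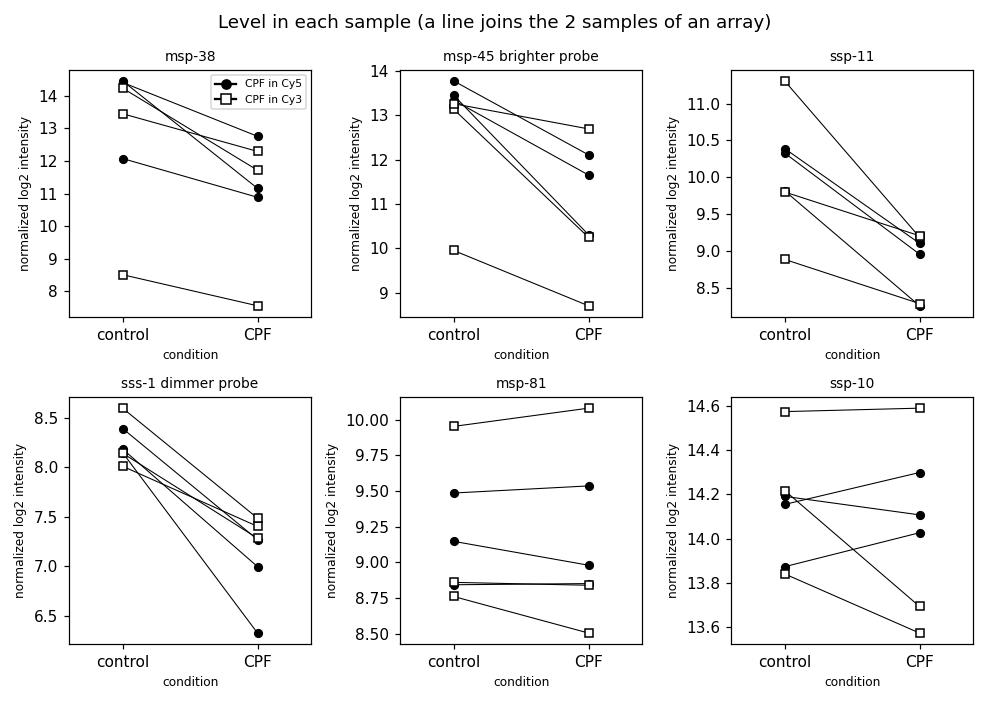
The normalized log2 intensity of 6 probes is plotted for each sample, with a line joining the control and the CPF sample of an array (filled circles, CPF in Cy5; open squares, CPF in Cy3). The lines of msp-38, the brighter msp-45 probe, ssp-11 and the dimmer sss-1 probe all fall, while those of msp-81 and ssp-10 go in both directions.

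The ssq genes differed among themselves. The family's median log2 fold change was -0.34, the nearest to 0 of the 5 families. It takes in 3 probes of ssq-1, and was -0.51 with 1 probe for each gene. Of the family's 7 probes 1 fell. That was ssq-4, with -0.68 ± 0.11 (limma adjusted p = 0.0411). Its log2 intensity was 6.32 to 7.47 in CPF treated worms (median 6.75) and 6.82 to 7.91 in control worms (median 7.67). Its ratios were -1.38, -0.86 and -0.97 with CPF in Cy5, and -0.50, -0.45 and 0.08 with CPF in Cy3. It was above background in 3 of 6 CPF samples, and was the one called probe that was not below 0 on all 6 arrays. ssq-2 had a larger change with a larger error, -1.42 ± 0.31 (limma adjusted p = 0.10). Its ratios were -2.68, -1.54, -1.29 and -2.43 on 4 arrays but -0.32 and -0.25 on CPF Cy3 replicates 2 and 3. ssq-3 had -0.70 ± 0.18 (0.176) at its dimmer probe and -0.34 ± 0.27 (0.791) at its brighter one.

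ssq-1 was not called at any of its 3 probes. The fitted values were -0.05, 0.07 and -0.13 from the brightest to the dimmest probe. Their 95% intervals were -0.32 to 0.22, -0.20 to 0.34 and -0.67 to 0.41. The log2 intensity of the brightest probe was 14.88 to 15.94 in CPF treated worms and 15.27 to 15.57 in control worms. At least 25% of its pixels were saturated in 4 CPF samples and 1 control sample, which limits the ratio it could show. Its other probes had 0 such samples. At the dimmest probe the ratio was -1.15 on CPF Cy3 replicate 1 but 0.55 and 0.79 on CPF Cy3 replicates 2 and 3. On all 6 arrays the ratios of the 3 ssq-1 probes were above those of the 13 msp probes with signal other than msp-81, and those of ssp-10 on 5 of 6. The ssq-1 and ssp-10 probes were picked for a fitted change of size under 0.2. This separation therefore partly follows from the choice and is no test. The direction of the family median was not stable either. It was 0.02 without CPF Cy3 replicate 1, and -0.78 without CPF Cy3 replicates 2 and 3.

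In the sss family all 3 probes fell, and the family had the lowest adjusted p of the 44 probes. The dimmer probe of sss-1 had a log2 intensity of 6.32 to 7.49 in CPF treated worms (median 7.28) and 8.01 to 8.60 in control worms (median 8.17). Its ratios were -1.83, -1.12 and -1.19 with CPF in Cy5, and -0.86, -0.61 and -1.11 with CPF in Cy3. This gave a log2 fold change of -1.12 ± 0.12 (limma adjusted p = 0.0140). At the brighter probe it was -1.31 ± 0.20 (0.0342), from 6.62 to 8.19 (median 7.87) against 8.46 to 9.53 (median 9.08). At both probes all 6 CPF levels lay below all 6 control levels. Over the 44 probes 5 did so, against 0.191% of all probes, and these 2 were the called ones among them. sss-2 had -0.98 ± 0.16 (limma adjusted p = 0.0405), with ratios of -2.0 to -0.52, and is listed as a pseudogene in WBcel235. Without CPF Cy3 replicates 2 and 3 the sss median was again -1.12, but the brighter sss-1 probe and sss-2 were no longer called (limma adjusted p = 0.0877 and 0.0891).

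Probes of the same gene were compared on each array. In 8 pairs of probes from msp-142, ssp-16, ssp-31, ssq-1, ssq-3 and sss-1, the mean difference in log2 ratio was between -0.19 and 0.36. An exact sign-flip test (two-sided) gave p between 0.1875 and 0.719. With 6 arrays its smallest p is 0.03125. After adjustment over 8 pairs it could not have called a pair that differed alone, without most others. Whether probes of a gene differ stays unsettled here. The brightest ssq-1 probe, with its saturated spots, was in 2 of the pairs. The pair of ssq-3 had the widest difference, 0.36 ± 0.47 (SD, n = 6 arrays).

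The size of the decrease differed between arrays. The median log2 ratio of the 18 msp probes was -3.04 on CPF Cy5 replicate 1, -1.54 and -1.36 on CPF Cy5 replicates 2 and 3, -2.42 on CPF Cy3 replicate 1, and -0.60 and -0.59 on CPF Cy3 replicates 2 and 3. That of the ssp probes ran from -1.58 to -0.16. That of the ssq probes ran from -1.15 to 0.26 and was above 0 on CPF Cy3 replicates 2 and 3. The sss probes were lower on every array, with -2.0, -1.33 and -0.65 on CPF Cy5 replicates 1 to 3 and -0.86, -0.79 and -1.11 on CPF Cy3 replicates 1 to 3. Without CPF Cy3 replicates 2 and 3 the family medians were -2.23 for msp, -0.88 for msd, -0.87 for ssp and -0.78 for ssq.

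Both scan days held both dye orientations, but on each day 1 orientation was on a single array. These were CPF Cy3 replicate 1 on the first day and CPF Cy5 replicate 3 on the second. The fits within a day thus rest on few arrays, and their counts are not stronger evidence than those of the full fit. Within the first day 29 of the 44 probes were called lower (4.11% of all probes) and within the second 16 (0.418%), with 0 higher in each (1.23% and 0.187% of all probes). A fit that took scan day as a block called 3 lower and 0 higher (0.391% and 0.209%). The log2 fold change was lower on the first day for 40 of the 44, against 50.96% of all probes. The msp median was -2.38 on the first day and -1.01 on the second. CPF Cy3 replicates 2 and 3, which stood apart, were both scanned on the second day. A difference between days was not separated from that of this pair. No probe passed the threshold for a difference between days (limma, lowest adjusted p = 0.599), and 20 of the 44 had an unadjusted p below 0.05, against 8.13% of all probes.

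**Figure D4:**
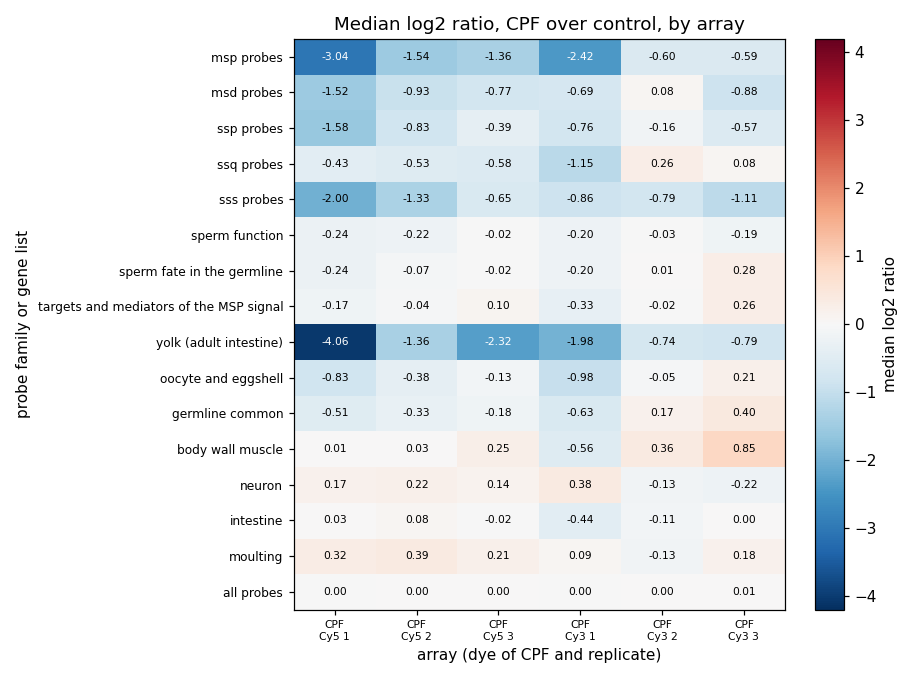
The median log2 ratio of CPF over control is shown by array (columns) for the 5 probe families, 10 gene lists and all probes (rows), with the colour giving the same value as the number. The msp and yolk rows have their lowest value on CPF Cy5 replicate 1, the sss row is the lowest on CPF Cy3 replicates 2 and 3, and the row of all probes is at 0.01 or less.

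None of the other genes listed for the sperm pathway was called, and their difference from the 5 families was not tested. In these lists each gene was represented by its brightest probe. Of 28 genes for sperm assembly, activation and fertilization on the array (the spe genes, fer-1, gsp-3, gsp-4 and others), 0 were lower and 0 were higher, with a median log2 fold change of -0.16, and 10 were above background nowhere. gsp-3, a sperm-specific protein phosphatase, had -1.06 ± 0.21 (limma adjusted p = 0.0735), with ratios of -2.09 to -0.37. spe-11, which encodes a paternal factor for the embryo, had -0.48 (0.0898). spe-44, a transcription factor for the spermatogenesis programme, had -0.42 ± 0.11 (0.187). Of 15 genes that set the sperm or oocyte fate of the germline, 0 were called and the median was 0.01. fog-1, needed for the sperm fate, had 0.61 (0.518) and gld-1, an RNA binding repressor in the germline, -0.63. Of 11 genes that receive or relay the MSP signal, 0 were called, with a median of -0.02, and vab-1, an Eph receptor that binds MSP, had 0.08.

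Markers of other tissues were read beside these families. Of the 6 yolk protein (vit) genes, which the intestine of adults expresses, 4 were lower and 0 higher, with a median of -1.84. Their median ratios were -4.06, -1.36 and -2.32 on CPF Cy5 replicates 1 to 3 and -1.98, -0.74 and -0.79 on CPF Cy3 replicates 1 to 3. Their summed log2 intensity was 9.51 to 12.78 in CPF treated and 12.68 to 13.57 in control worms. Of 16 oocyte and eggshell genes 0 were called. Their median was -0.44, their summed level was 12.46 to 13.42 against 12.70 to 13.69, and the chitin synthase gene chs-1 was above background nowhere. The median was -0.11 for 12 genes common to the germline, -0.10 for 5 intestinal, 0.11 for 6 muscle, 0.08 for 6 neuronal and 0.16 for 9 moulting genes, with 0 calls in each. The part of stage and of gonad size in the decrease of the sperm families was not tested.

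Several of the genes lie side by side on the chromosomes. By the gene order of WBcel235, 26 of the 44 probes belong to genes of chromosome IV, 8 to chromosome II, 6 to I, 3 to V and 1 to III, and the 13 lower probes to IV (7), II (3), V (2) and I (1). ssp-9, ssq-2 and ssp-11 are adjacent, and ssq-4 lies on with 4 genes between. Their values were -0.12 (at background), -1.42, -1.25 and -0.68. msp-63 and msp-142 are adjacent and had -1.65, and -1.81 and -1.75. msp-81 and msp-10 are adjacent with msp-56 next but 1, and had -0.04, 0.08 (at background) and -1.64. ssp-10 and ssq-1, which were both near 0, are adjacent. Neighbouring genes thus had like values in some cases and unlike values in others. The genes near 0 that had signal, msp-81, ssp-10 and ssq-1, were all on chromosome IV, as were 21 of the 35 member genes. They were picked by their values, and a link to location was not tested.

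**Figure D5:**
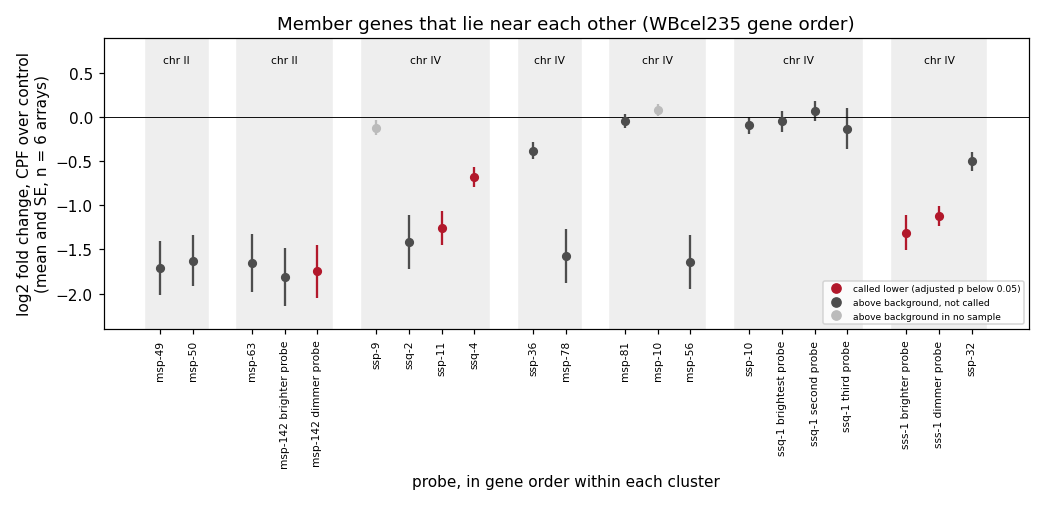
The log2 fold change of CPF over control (fitted mean and SE over 6 arrays) is plotted for genes of the 5 families that lie near each other, in gene order, with each group of neighbours shaded. msp-56 at -1.64 lies close to msp-81 at -0.04, and the probes of ssp-10 and ssq-1 lie between -0.13 and 0.07.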

How the data were processed

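The deposited intensity values were mean and median spot brightness and local background of both channels, linear and without normalization, from a ScanArray Express scanner. Beside them the authors deposited a percent of saturated pixels for each spot and a spot code, a score that the sources used here do not explain. The authors also deposited a table of log2 ratios, made with loess and Aquantile in limma by the study's methods. Set against the scanner values, it equalled log2 CPF over control without background correction to within 0.0148, with column medians of -0.00107, -0.000791, -0.000933, -0.00213, 0.0021 and 0.00608.

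Here background was corrected with normexp (offset 50), followed by global loess with control spots at weight 0 and Aquantile. limma 3.58.1 in R 4.3.3 fitted a treatment and a dye term to 22490 probes, with two-sided tests and adjustment after Benjamini and Hochberg. Each SE belongs to a fitted log2 fold change. The rank product used 100 permutations. Genes were named by locus tag through a table of WBcel235, used for names and gene order only. The text names, per family, the 3 probes with the lowest p, the one with the highest fold change and every called probe, and others were chosen after their values were seen. Families and lists were chosen with earlier results of these data known, and the study discussed genes of the major sperm protein type on these samples. Alternatives covered background, normalization, spot filters, scan day, blocks and left-out arrays. Labels call the replicates biological. The sources used here do not say whether each array had its own control extract, and p-values therefore reflect only how these arrays spread. Precision is limited by the number of arrays and by how far spots rose above background. No sequences are printed.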

Additional observations from a re-analysis of the deposited data

How the results depend on the processing

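Under every alternative 0 of these probes were called higher. The number called lower, 13 as reported, was 0 without background correction, 0 with plain subtraction and 0 from the deposited ratios, 4 with median brightness, 23 with median centring, 3 with scan day as a block, 29 within scan day 1, 29 by rank product, and 0 of 7 probes with spots of scanner code 1 only. Leaving out 1 array gave 0 to 21. Leaving out CPF Cy3 replicates 2 and 3, an alternative chosen after seeing the data, gave 23. With a replicate block it was 0. Shares of all probes for scan day, rank product and left-out arrays are given above. For plain subtraction, the deposited ratios, median brightness, median centring, code 1 and the replicate block none is given. Those counts therefore cannot be read as particular to these families. Whether the replicate numbers pair the arrays is not settled. The deviations of same-numbered arrays correlated at 0.099, 0.080 and -0.036, and those of differently numbered arrays at -0.126 to 0.059. So few arrays cannot decide it. With spots of code 1 only, the median log2 fold change was -0.00843 over 4 msp probes, -0.0623 for 1 msd probe and -0.0623 over 2 ssp probes. These were the 7 probes above background nowhere, so these medians say nothing of the change in the families. With spots of code 3 only, chosen after seeing the data, the msd value was -1.97 from 1 probe and the ssp median -1.62 from 5 probes. Over all settings 10 of the 44 probes changed sign at least once, 0 of them called and 5 of them above background nowhere. Among the 20 probes followed in detail these were msd-2 (0.0637 with plain subtraction), ssp-37 (0.0304 with median brightness, 0.00182 with print-tip loess, 0.00113 with median centring, -0.0347 to 0.0240 without 1 array, positive without CPF Cy5 replicate 1) and the second ssq-1 probe (-0.17 within scan day 1, -0.0280 to 0.192 without 1 array, negative without CPF Cy3 replicate 3, -0.18 without CPF Cy3 replicates 2 and 3). The 13 called probes changed sign under 0 of 22 other settings and lost the call in 146 of 264 values. The cause of these changes was not tested. Depth on an array is its signal over background, and the 7 probes above background nowhere have no usable ratio.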
